A study of Mus musculus with 12 samples.

Results

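Solute carriers are the membrane proteins that move sugars, amino acids, nucleosides, vitamins, metals and ions across the plasma membrane and the membranes of organelles. The genes described here are the 173 mouse genes whose symbol starts with Slc followed by a digit and whose raw read count averaged at least 100 over the 12 libraries of sorted bone marrow macrophages and monocytes. They were thus chosen by a measured value, the mean raw count over all libraries. The table of 56953 genes held 379 genes with such symbols. Of these, 200 fell below the floor, and 6 with known roles in iron, heme or the red cell (Slc40a1, Slc11a1, Slc48a1, Slc4a1, Slc25a37 and Slc25a38) were left out by name. The members nearest to the floor were Slc35e3, Slc25a33, Slc25a21 and Slc39a12 with mean counts of 101.8, 103.3, 105.2 and 105.6, and those just outside it were Slc7a1, Slc25a29, Slc7a13 and Slc6a9 with 99.5, 98.5, 97.5 and 94.7. A gene could pass through 1 group only: 133 members reached a mean of 100 in all 4 groups, 14 in 3 groups, 24 in 2 groups and 2 in 1 group. All 173 members had an adjusted p in every comparison.

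RNA was sequenced from 4 groups of sorted bone marrow cells, with 3 libraries in each. All cells came from female C57BL/6J mice of 8 weeks. The macrophages (F4/80hi) were traced in Rank-cre/+;R26.eYFP fl/+ mice, in which Cre driven from the Rank locus switches on eYFP for good in macrophages of the embryo. The eYFP+ macrophages are therefore of embryonic origin and the eYFP- macrophages are taken as derived from adult hematopoietic stem cells, although a cell in which Cre failed to recombine would also be eYFP-. Ly6Chi and Ly6Clo monocytes of bone marrow were sorted by the surface protein Ly6C, and the sources used here give no genotype for them. No group received an agent. The cDNA of the sorted cells was amplified without molecular identifiers. The labels do not say which libraries come from the same mouse, so p-values measure the spread between these libraries.

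Transport families hold several genes for 1 substrate, which differ in affinity, in direction of transport and in the membrane they sit in. Monocytes leave the marrow for the blood, whereas resident marrow macrophages surround maturing red cells and take up their expelled nuclei and worn-out cells, a load of amino acids, nucleosides and metals that leaves the lysosome through carriers. Many amino acid carriers work as heterodimers with the heavy chain encoded by Slc3a2, and lactate carriers of the Slc16 family need basigin or embigin to reach the cell surface.

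Depth ranged from 26390927 to 48618187 counts per library. The libraries Ly6Clo replicate 2 and eYFP+ replicate 1 stood apart, since their GC-rich transcripts were low: the median log2 ratio of the 1175 most GC-rich genes, against the remaining pair of libraries in each group, was -1.24 and -0.72, and that of the members was -0.60 and -0.29. Ly6Clo replicate 2 also had a count for only 16434 genes, beside 24769 and 22254 in the other Ly6Clo libraries. Among eYFP- macrophages, replicate 2 stood apart by its neutrophil markers, given with that comparison. Counts of calls without 1 or more of these libraries are given with each comparison. All 12 macrophage markers were higher in macrophages than in monocytes, and 5 of 7 Ly6Chi and 5 of 7 Ly6Clo markers were called in the labelled direction between the monocyte groups. The macrophage libraries also held RNA of erythroid genes, with a summed level of 15 erythroid markers of 9155 to 15053 TPM in eYFP+ macrophages and 23029 to 36897 TPM in eYFP- macrophages. In monocytes the same sum was 394 to 906 TPM (Ly6Chi) and 555 to 1442 TPM (Ly6Clo). None of the 15 markers was at 0 in a whole group, and all 15 were called higher in macrophages. Markers of neutrophils and their precursors went the other way, with sums of 15729 to 23925 TPM in Ly6Chi and 6763 to 16092 TPM in Ly6Clo monocytes against 124 to 2708 TPM in macrophages (8 of 12 called lower in macrophages, none at 0 in a whole group). T and NK cell markers summed to at most 56.4 TPM in any library, and 7 of 10 were called higher in macrophages, with 1 at 0 in all Ly6Chi libraries. Also called higher there were 6 of 14 proliferation, 5 of 8 megakaryocyte and 3 of 8 stromal and endothelial markers, with 0 lower. Of the list for eosinophils, basophils and mast cells 1 of 9 was higher and 0 lower. Of 8 B cell markers 1 was higher and 1 lower. The part of these cells in the members' differences was not tested. TPM, the deposited level of a gene per length and per library size, is divided by gene length and is the scale on which levels of different genes are compared here.

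Members were sorted into 12 classes by the substrate that their family is known for. Summed over all 173 members, the level was 7853, 9220 and 9998 TPM in the 3 eYFP+ macrophage libraries and 8234, 8959 and 8635 TPM in eYFP- macrophages. It was 5852, 5669.9 and 5814 TPM in Ly6Chi monocytes and 5927, 4543 and 5731 TPM in Ly6Clo monocytes, so every macrophage library lay above every monocyte library. The 33 carriers of the inner mitochondrial membrane took the largest share of all classes in the mean of each group, with a sum of 2276 ± 25.9 TPM (SD, n = 3) in Ly6Chi and 2040 ± 143 TPM in Ly6Clo monocytes, and 2302 ± 56.2 and 2427 ± 85.4 TPM in eYFP+ and eYFP- macrophages. The 27 amino acid carriers summed to 2239 ± 260.1 TPM in eYFP+ and 1953 ± 92.4 TPM in eYFP- macrophages but to 622 ± 28.2 and 638 ± 38.7 TPM in Ly6Chi and Ly6Clo monocytes. Carriers of nucleosides and vitamins showed the same order, at 1021 ± 107 and 994 ± 29.5 TPM against 218 ± 17.6 and 364 ± 16.1 TPM. The summed level of the 5 carriers of lipids and choline stood the other way through 1 gene, Slc44a2, while 2 of the 5 were called higher in macrophages. The sums were 173 ± 53.6 and 175 ± 19.4 TPM in macrophages and 318 ± 23.6 TPM in Ly6Chi monocytes. In Ly6Clo monocytes these 5 reached 426, 98.8 and 377 TPM, with replicate 2 below all other libraries. In bulk samples, more cells of one kind and more RNA per cell cannot be told apart.

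**Figure D1:**
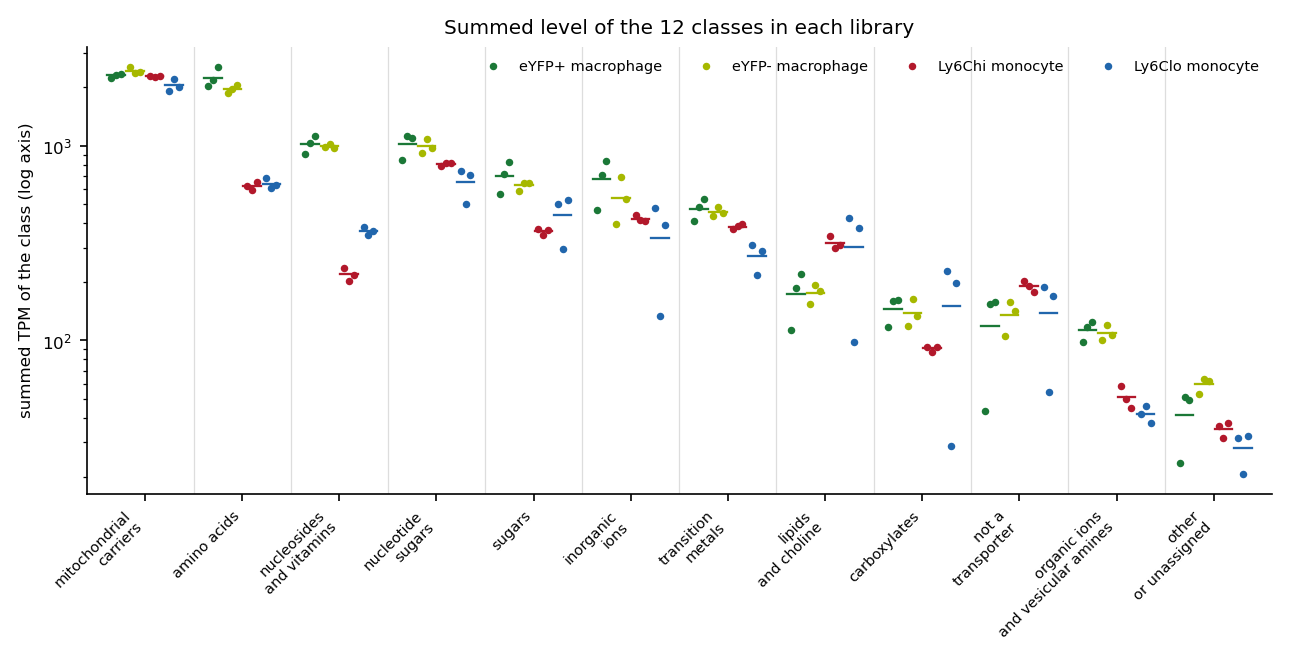
Each point is the summed TPM (vertical log axis) of the members of a class in 1 library, with the group mean as a line. Amino acid carriers separate macrophages (1855 to 2528 TPM) from monocytes (594 to 681 TPM), while mitochondrial carriers lie between 1915 and 2524 TPM in all 12 libraries.

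The first comparison asked how macrophages differed from monocytes, with the 2 macrophage groups averaged on one side and the 2 monocyte groups on the other. Of the 173 members, 75 were called higher and 34 lower in macrophages (DESeq2, Benjamini-Hochberg adjusted p under 0.05), together 63.0%. Among all genes tested, 35.4% were called. Among genes that passed the same count floor, 24.3% were higher and 20.9% lower, against 43.4% and 19.7% of the members. The median log2 fold change was 0.54 over the members, 0.03 over genes with that floor and 0.08 over all genes tested. edgeR's quasi-likelihood test called 102 members, all of them also called by DESeq2, and 35.6% of all genes. A change of at least 2-fold was seen in 88 of the members called. Without Ly6Clo replicate 2 and eYFP+ replicate 1 together, 89 members were higher and 40 lower, and every member called with all libraries was among them. Without Ly6Clo replicate 2 alone Slc33a1 was no longer called, and the members lost without eYFP+ replicate 1 alone included Slc27a4, Slc25a44, Slc35a2 and Slc30a6. Without eYFP- replicate 2, 67 members were higher and 32 lower, and 11 calls were lost, Slc15a4, Slc27a1, Slc25a1, Slc19a2 and Slc39a11 among them.

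The classes did not divide alike. Carboxylate carriers had 7 members higher and 1 lower of 8, amino acid carriers 17 and 6 of 27, carriers of nucleosides and vitamins 8 and 2 of 12, transition metal carriers 7 and 1 of 18, and organic ion carriers 6 and 1 of 10. Mitochondrial carriers had 10 higher and 9 lower of 33, inorganic ion carriers 7 and 6 of 21, sugar carriers 4 and 4 of 13, nucleotide sugar carriers 6 and 3 of 20, and lipid and choline carriers 2 and 1 of 5. Of the 2 members outside these classes Slc14a1 was higher. None of the 4 genes that carry an Slc symbol without being carriers (such as Slc9a3r1, a scaffold protein) was called. The medians of the transporter classes ran from 2.70 (carboxylates), 1.35 (nucleosides and vitamins) and 1.31 (amino acids) to 0.15 (mitochondrial carriers) and 0.02 (sugars), beside 0.03 over all genes with that floor. Differences between classes were not tested.

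**Figure D2:**
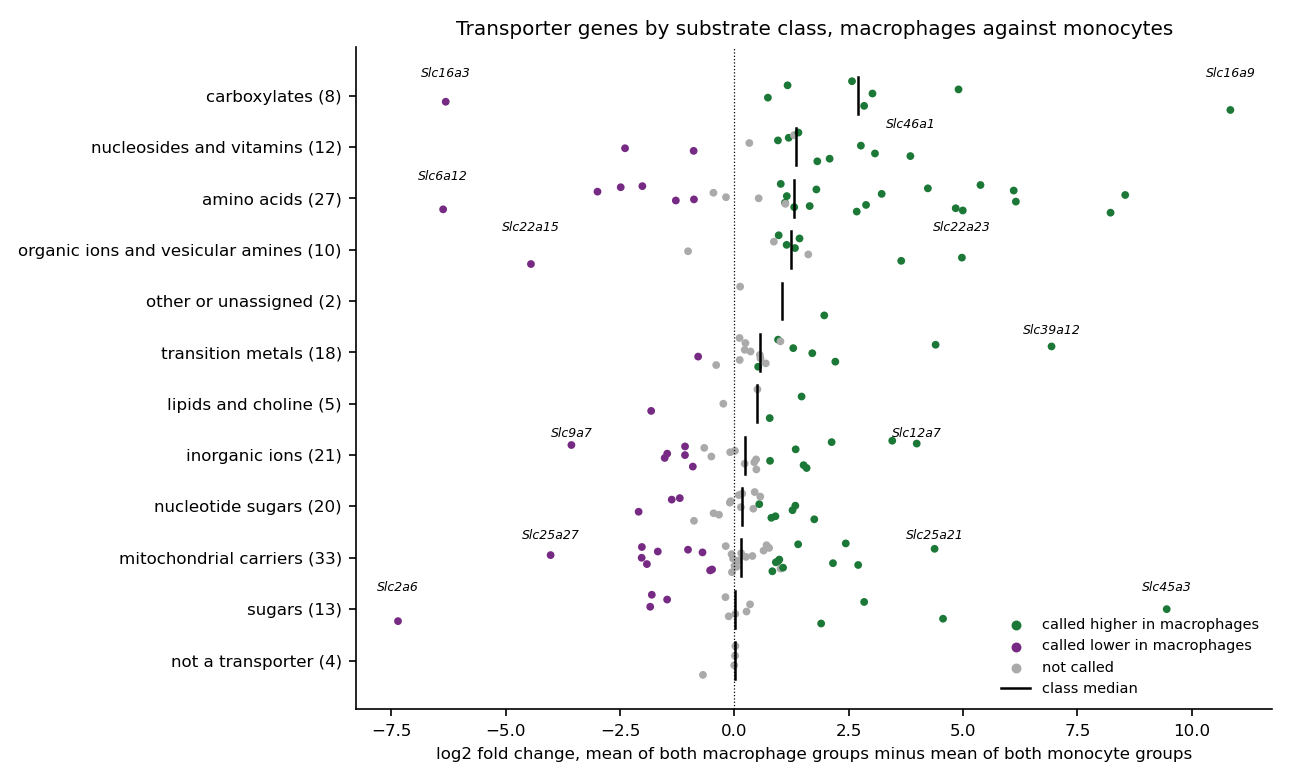
Each point is 1 member, placed on the horizontal axis by its log2 fold change (macrophages minus monocytes), in rows by class with the number of members, coloured by the call, with the class median as a black line. Members of 1 class lie on both sides of 0, as Slc45a3 and Slc2a6 among sugar carriers and Slc16a9 and Slc16a3 among carboxylate carriers.

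The promoters of members that moved together were read for short sequence motifs. RefSeq (GRCm38.p6) gave a start site for 134 of the 173 members, and the 250 bases before each start were searched on both strands. The E-box CACGTG, the site that factors of the MYC, MiT/TFE and USF families are known to bind, occurred in 16 of 55 members called higher in macrophages (29.1%), in 3 of 27 called lower (11.1%) and in 6 of 52 not called (11.5%). It occurred in 10.5% of other genes with the same count floor that were called higher in macrophages, in 9.41% of those called lower and in 6.86% of all 27025 genes of the promoter table. The longer TCACGTGA, the core of the CLEAR element that MiT/TFE factors bind, was in none of the 55 members called higher, in none of the 27 called lower and in 3 of 52 not called (5.77%). Among other genes with that floor it was in 1.99%, and in 1.74% of those called higher, so 0 of 55 lies near that share. Members called higher had 1.44 starts per gene in the table and members not called 1.27. TGCTGA, part of the Maf recognition element, occurred in 29.1%, 7.41% and 11.5% of the members called higher, lower and not called and in 15.1% of other genes with that floor. The full element TGCTGANTCA was in 0 of the 134 members and in 0.301% of other genes with that floor, too rare for a contrast. GACGTG, a form of the hypoxia response element, was found in 6 of 27 members called lower (22.2%), in 3 of 55 called higher (5.45%) and in 9.05% of other genes with that floor. The shorter core, ACGTG or GCGTG, was in 69.1% of members called higher and in 59.3% of those called lower. Among other genes with that floor it was in 60.5% of those called higher and 58.9% of those called lower. These strings were singled out after the shares of 21 strings had been seen, and the shares are a description without a test. TGANNNNGC (named ARE, the antioxidant response element) was in 61.8%, 40.7% and 48.1% of the members called higher, lower and not called and in 41.8% of other genes called higher. The other strings were TCACGTGA (named CLEAR core), GAGGAAGT (named PU.1), TGANTCA (named AP-1), TGATGCAA (named ATF4), ACGTG or GCGTG (named HIF core), CCAATC (named CCAAT), GAAANNGAAA (named IRF), CCACACCC (named KLF), GGAANTGAAA (named EICE), GGGGCGGGG (named SP1), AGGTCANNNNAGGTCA (named LXR), AAAGGTCA (named NR4A), TGCTGANTCA (named MARE), AGATAAG (named GATA), TTGCGCAA (named C/EBP full), TTGCNNAA (named C/EBP) and TGACGTCA (named CREB). Several overlap: TCACGTGA holds CACGTG, the string ACGTG lies within CACGTG as well as within GACGTG, TGCTGANTCA holds TGCTGA along with TGANTCA, and TTGCGCAA is a form of TTGCNNAA.

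To show where the E-box lies, the promoters of 4 carriers that were higher in macrophages (of glutamine, lactate, divalent metals and nucleosides) are given with that of Slc2a6, which was higher in monocytes and has no such string in this window. Each is the 250 bases that end at the base before the start, 5′ to 3′ on the strand of the gene, with CACGTG in capitals. Slc38a7 is at chr8:95853492-95853741 (minus strand), Slc16a1 at chr3:104638414-104638663 (plus), Slc39a8 at chr3:135825407-135825656 (plus), Slc29a1 at chr17:45595247-45595496 (minus) and Slc2a6 at chr2:27027999-27028248 (minus), all in GRCm38.p6. The site begins 34, 200, 71 and 75 bases before the start in the first 4. Slc29a1 has 8 starts in the table and Slc39a8 has 2, of which 1 with the site is shown.
Slc38a7: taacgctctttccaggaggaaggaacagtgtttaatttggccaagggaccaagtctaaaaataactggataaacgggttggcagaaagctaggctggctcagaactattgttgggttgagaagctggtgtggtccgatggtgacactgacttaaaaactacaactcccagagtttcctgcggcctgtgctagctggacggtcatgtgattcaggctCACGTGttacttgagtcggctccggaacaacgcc
Slc16a1: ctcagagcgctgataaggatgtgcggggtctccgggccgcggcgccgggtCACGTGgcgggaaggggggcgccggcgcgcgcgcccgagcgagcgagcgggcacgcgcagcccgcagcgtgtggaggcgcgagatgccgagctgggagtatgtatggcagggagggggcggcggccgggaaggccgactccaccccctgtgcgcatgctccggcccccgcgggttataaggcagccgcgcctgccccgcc
Slc39a8: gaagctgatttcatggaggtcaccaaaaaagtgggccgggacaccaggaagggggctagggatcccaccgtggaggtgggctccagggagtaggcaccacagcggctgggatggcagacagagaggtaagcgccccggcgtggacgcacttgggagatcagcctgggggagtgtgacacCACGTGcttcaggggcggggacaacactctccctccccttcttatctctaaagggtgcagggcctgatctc
Slc29a1: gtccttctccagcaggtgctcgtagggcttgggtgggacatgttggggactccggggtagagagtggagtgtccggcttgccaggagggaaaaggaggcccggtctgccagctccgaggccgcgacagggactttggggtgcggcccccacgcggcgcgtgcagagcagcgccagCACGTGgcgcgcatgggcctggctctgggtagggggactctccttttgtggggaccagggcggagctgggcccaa
Slc2a6: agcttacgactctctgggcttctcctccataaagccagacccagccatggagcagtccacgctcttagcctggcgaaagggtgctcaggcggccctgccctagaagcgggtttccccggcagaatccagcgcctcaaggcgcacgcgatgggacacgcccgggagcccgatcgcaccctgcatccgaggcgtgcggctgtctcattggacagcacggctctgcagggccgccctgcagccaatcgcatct

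Among sugar carriers, the genes with high levels differed between macrophages and monocytes. Slc45a3, of the proton-coupled sugar carriers, was the most abundant sugar carrier of both macrophage groups in the mean, with 159.7, 263 and 329.7 TPM in eYFP+ and 219, 235 and 259.5 TPM in eYFP- libraries. In monocytes it had 0.122, 0.158 and 0 TPM (Ly6Chi) and 0.874, 0 and 2.48 TPM (Ly6Clo), so the groups did not overlap. The log2 fold change was 9.45 ± 0.98 (SE, adjusted p = 1.63e-20, DESeq2). Slc37a2, which exchanges glucose-6-phosphate for phosphate across the endoplasmic reticulum membrane, was 162, 165 and 189 TPM in eYFP+ and 103, 142 and 115 TPM in eYFP- macrophages, against 6.86, 5.27 and 4.95 TPM in Ly6Chi and 9.88, 0.155 and 7.26 TPM in Ly6Clo monocytes. Slc2a8 (GLUT8, an intracellular glucose carrier) and Slc45a4 were also higher in macrophages, by 1.90 ± 0.41 and 2.84 ± 0.24 on the log2 scale.

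The reverse held for 4 other members of the Slc2 family. Slc2a6 (GLUT6, a carrier of the lysosome membrane) had 172, 161 and 176 TPM in Ly6Chi and 239.7, 67.6 and 263 TPM in Ly6Clo monocytes. In macrophages it had 1.18, 0.0704 and 1.11 TPM (eYFP+) and 1.31, 1.73 and 2.099 TPM (eYFP-), a log2 fold change of -7.35 ± 0.48 (adjusted p = 6.26e-50). Every monocyte library lay far above every macrophage library, the low Ly6Clo replicate 2 included. Slc2a1 (GLUT1, the carrier of basal glucose uptake) was 36.4, 31.03 and 28.9 TPM in Ly6Chi and 33.9, 14.1 and 35.6 TPM in Ly6Clo monocytes and 7.42 to 10.2 TPM in macrophages, 3.58-fold lower there. Slc2a3 (GLUT3) and Slc2a9 (GLUT9, a urate carrier) were lower in macrophages as well, with log2 fold changes of -1.47 ± 0.36 and -1.80 ± 0.27 and some overlap between the cell types. Slc50a1, a member of the SWEET family and the most abundant sugar carrier over the 12 libraries, was not called (144, 136, 83.98 and 142 TPM in the 4 groups).

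Carriers of lactate, pyruvate and other carboxylates held 2 genes of 1 family with opposite levels. Slc16a3 (MCT4, the low-affinity lactate exporter of glycolytic cells) had 67.3, 64.002 and 63.3 TPM in Ly6Chi monocytes and 200.02, 9.65 and 174 TPM in Ly6Clo monocytes. It had 0.691, 1.11 and 0.602 TPM in eYFP+ and 1.06, 2.11 and 2.43 TPM in eYFP- macrophages (log2 fold change -6.31 ± 0.51, adjusted p = 1.08e-33). The low Ly6Clo value of 9.65 TPM came from replicate 2, and even that library lay above all macrophage libraries. Slc16a1 (MCT1, which takes up and releases lactate) had 10.04, 16.7 and 18.7 TPM in eYFP+ and 19.7, 31.4 and 32.1 TPM in eYFP- macrophages. In monocytes it was 2.01, 2.15 and 2.88 TPM (Ly6Chi) and 2.68, 2.26 and 2.02 TPM (Ly6Clo), so that macrophages were 8.11-fold higher (adjusted p = 1.76e-43). The promoter of Slc16a1, shown above, holds an E-box.

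The other Slc16 members sided with Slc16a1. Slc16a6 (MCT7, a ketone body carrier) had 41.7, 39.01 and 39.6 TPM in eYFP+ and 41.01, 34.99 and 33.3 TPM in eYFP- macrophages, against 6.79 to 7.72 TPM in Ly6Chi and 3.24 to 3.67 TPM in Ly6Clo monocytes (log2 fold change 2.84 ± 0.17, adjusted p = 1.82e-63). Slc16a9 (MCT9) had 19.7, 39.3 and 43.1 TPM and 18.1, 39.7 and 19.7 TPM in the macrophage groups and was listed at 0 in all 3 Ly6Chi libraries and in 2 of 3 Ly6Clo libraries, with 0.234 TPM in the other one (adjusted p = 4.25e-17). No fold is given for it, and the class median of 2.70 does not depend on its size. Slc16a7 (MCT2) and Slc16a13 rose less, by 0.73 and 1.16 on the log2 scale. Slc13a2 and Slc13a3, the sodium-coupled carriers of succinate and citrate, were also higher, at 8.504 and 15.9 TPM in eYFP+ macrophages against 0.0858 and 1.38 TPM in Ly6Chi monocytes.

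**Figure D3:**
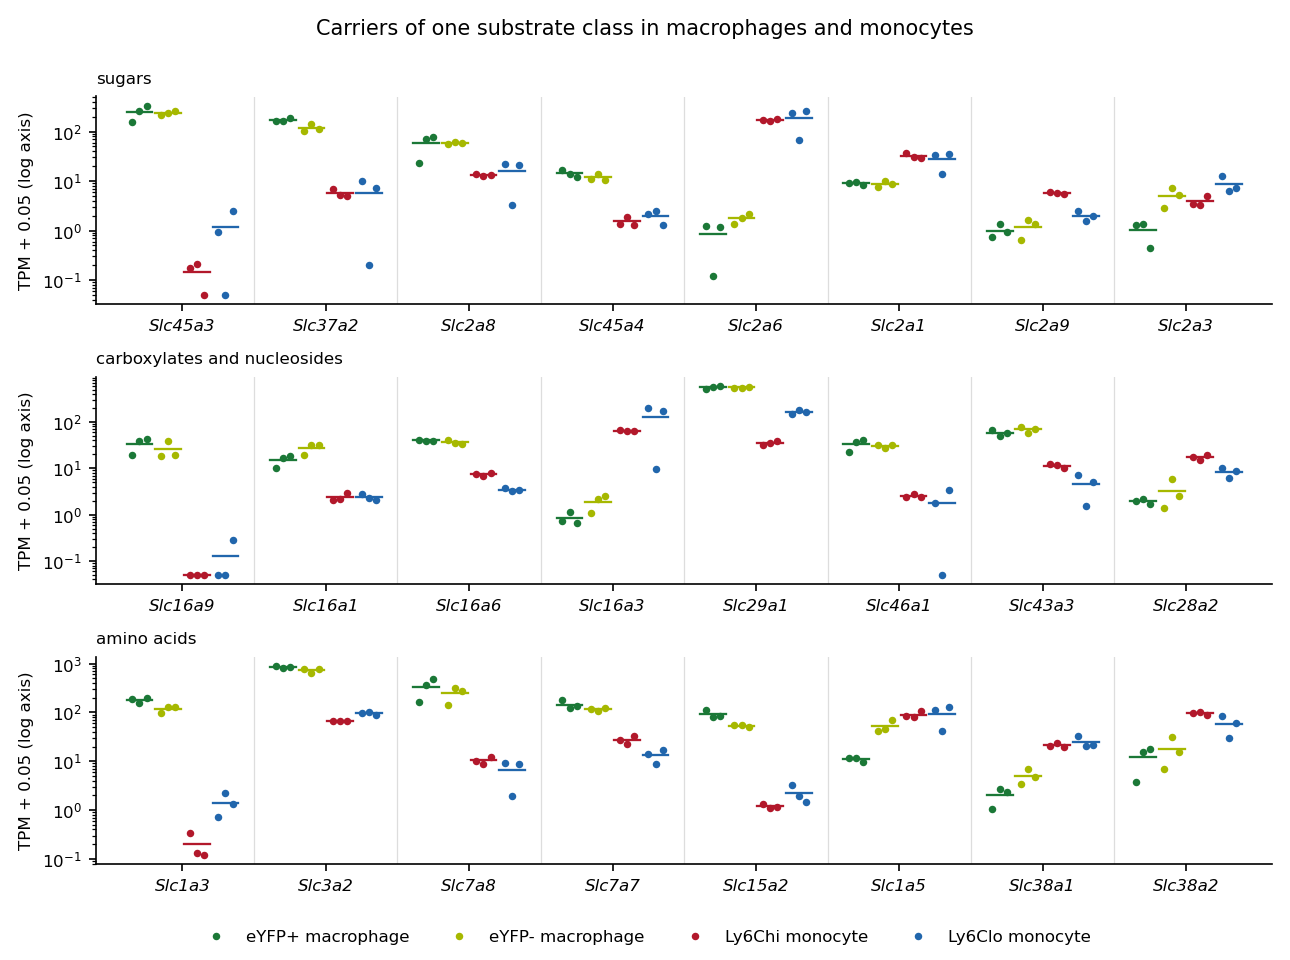
Points are TPM plus 0.05 (vertical log axes) in the 12 libraries for 24 members in 3 panels (sugars; carboxylates and nucleosides; amino acids), with group means as lines. Slc2a6, Slc2a1, Slc2a9, Slc2a3, Slc16a3, Slc28a2, Slc1a5, Slc38a1 and Slc38a2 were called higher in monocytes and the other 15 in macrophages.

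Amino acid carriers were mostly higher in macrophages, but several families held members on both sides. Slc3a2, the heavy chain of the LAT-type carriers of the Slc7 family, was the most abundant amino acid member in macrophages, though not in either monocyte group: 896, 801 and 855 TPM in eYFP+ and 775, 656 and 761 TPM in eYFP- macrophages, 65.6, 66.01 and 65.5 TPM in Ly6Chi and 98.2, 100.04 and 89.2 TPM in Ly6Clo monocytes. It was 9.32-fold higher in macrophages (log2 fold change 3.22 ± 0.16, adjusted p = 4.90e-87). Of its light chains, Slc7a8 (LAT2, large neutral amino acids) had 163, 359 and 486 TPM and 145, 315 and 274 TPM in the macrophage groups and 1.86 to 12.2 TPM in all monocyte libraries. Slc7a7 (y+LAT1, which exports arginine and lysine) had 177, 122 and 133 TPM and 119, 108 and 123 TPM against 27.6, 22.03 and 33.2 TPM in Ly6Chi and 13.9, 8.86 and 17.2 TPM in Ly6Clo monocytes. Slc7a6 (y+LAT2), the paralogue of Slc7a7, went the other way, with 3.23 and 4.91 TPM in macrophages and 7.28 and 10.6 TPM in monocytes (log2 fold change -1.28 ± 0.29, adjusted p = 8.46e-05). The light chains Slc7a5 (LAT1) and Slc7a11 (xCT) were below the count floor and are no members.

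Slc1a3 (EAAT1, a glutamate and aspartate carrier best known from astrocytes) had 188, 157 and 201 TPM in eYFP+ and 98.98, 131 and 130.0 TPM in eYFP- macrophages. Monocytes had 0.295, 0.0846 and 0.0703 TPM (Ly6Chi) and 0.6701, 2.18 and 1.25 TPM (Ly6Clo), and the log2 fold change was 8.22 ± 0.38 (adjusted p = 4.38e-101). The lowest macrophage library thus lay far above the highest monocyte library, at 99.0 against 2.18 TPM. Slc15a2 (PEPT2, a di- and tripeptide carrier) followed, with 111, 79.5 and 83.5 TPM and 54.4, 55.6 and 50.01 TPM in macrophages and 1.04 to 3.26 TPM in monocytes (log2 fold change 5.38 ± 0.24). The lysosomal peptide and histidine carriers were split: Slc15a3 was higher in macrophages (1.31 ± 0.19 on the log2 scale) and Slc15a4 lower (-0.88 ± 0.32, adjusted p = 0.0184). Slc15a4 had 75.2, 67.3 and 65.2 TPM in Ly6Chi and 92.2, 269.6 and 80.2 TPM in Ly6Clo monocytes, the highest value in Ly6Clo replicate 2, and 62.9 and 56.1 TPM in macrophages.

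Less abundant carriers with a wide span between the cell types were Slc7a2 (CAT2, an arginine carrier) and Slc7a4, at 12.3 and 10.4 TPM in eYFP+ macrophages and at most 0.465 TPM in any monocyte library. Slc38a7, a lysosomal glutamine carrier whose promoter is shown above, had 72.3, 82.2 and 93.2 TPM and 48.9, 74.1 and 70.3 TPM in macrophages and 13.4 to 25.1 TPM in monocytes (3.47-fold). Slc6a6 (the taurine carrier), Slc43a2 and Slc16a10 were 2.15, 2.21 and 3.13-fold higher in macrophages. Slc38a9, the arginine sensor of the lysosome surface, was not called (14.1, 11.8, 12.9 and 14.5 TPM in the 4 groups).

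Slc1a5, Slc38a1 and Slc38a2, which carry glutamine and small neutral amino acids, were lower in macrophages. Slc1a5 (ASCT2) had 11.7, 11.6 and 9.58 TPM in eYFP+ and 42.3, 46.3 and 70.98 TPM in eYFP- macrophages, 83.8, 79.5 and 106 TPM in Ly6Chi and 111, 41.1 and 129 TPM in Ly6Clo monocytes. Ly6Clo replicate 2 lay just below the eYFP- macrophages, the other monocyte libraries lay above them, and the eYFP+ macrophages lay below all other libraries (log2 fold change over both -2.01 ± 0.29, adjusted p = 1.19e-10). Slc38a1 (SNAT1) had 20.5, 23.1 and 19.7 TPM and 32.8, 20.5 and 21.8 TPM in monocytes and at most 6.98 TPM in macrophages. Slc38a2 (SNAT2) had 95.2, 104 and 86.7 TPM in Ly6Chi and 85.6, 29.7 and 61.5 TPM in Ly6Clo monocytes and 12.3 and 17.8 TPM in macrophages, with overlap only between Ly6Clo replicate 2 and eYFP- replicate 2. Slc6a12 (BGT1, betaine and GABA) was 2.22 ± 0.538 TPM in Ly6Chi, 8.74 ± 0.238 TPM in Ly6Clo and at most 0.179 TPM in any macrophage library.

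Nucleoside carriers followed the same pattern. Slc29a1 (ENT1, which lets nucleosides pass in both directions) had 516, 572 and 599 TPM in eYFP+ and 538, 549 and 580.3 TPM in eYFP- macrophages. It had 31.99, 35.6 and 39.1 TPM in Ly6Chi and 147, 181 and 166 TPM in Ly6Clo monocytes, so the 2 monocyte groups did not overlap and both lay below macrophages (log2 fold change 2.77 ± 0.15, adjusted p = 2.93e-73). The concentrating nucleoside carrier Slc28a2 (CNT2) went the other way: 17.4, 14.9 and 19.6 TPM in Ly6Chi and 10.1, 6.04 and 8.62 TPM in Ly6Clo monocytes against 1.95, 2.18 and 1.65 TPM and 1.36, 5.76 and 2.48 TPM in macrophages (-2.39 ± 0.31). Slc43a3, a purine nucleobase carrier, was 57.8 and 69.3 TPM in macrophages and 11.4 and 4.49 TPM in monocytes. Slc29a3 (ENT3, the lysosomal nucleoside exporter) was 2.28-fold higher in macrophages (adjusted p = 0.00286), with its groups overlapping.

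The folate carriers were higher in macrophages as well. Slc46a1 (the proton-coupled folate carrier) had 22.9, 37.4 and 39.9 TPM and 31.3, 27.1 and 31.1 TPM in macrophages and at most 3.38 TPM in monocytes. Slc19a1 (the reduced folate carrier) had 15.9 and 19.9 TPM against 3.77 and 5.93 TPM. Slc46a3, a lysosomal carrier, was 193, 203 and 228 TPM and 263, 190.3 and 182 TPM in macrophages and 89.1, 66.8 and 66.03 TPM in Ly6Chi and 149, 137 and 134 TPM in Ly6Clo monocytes (1.94-fold). Slc23a2 (vitamin C) and Slc5a6 (biotin and pantothenate) were higher by 2.08 and 1.40 on the log2 scale, while the thiamine carrier Slc19a2 was lower (-0.89, adjusted p = 0.0352, edgeR 0.0532).

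Of the 18 carriers of transition metals, 7 were higher and 1 was lower in macrophages. Slc39a8 (ZIP8, zinc and manganese) had 32.8, 42.3 and 42.1 TPM in eYFP+ and 33.6, 41.9 and 35.7 TPM in eYFP- macrophages, 1.69, 1.46 and 1.16 TPM in Ly6Chi and 0.913, 3.13 and 1.699 TPM in Ly6Clo monocytes (21.1-fold higher in macrophages, adjusted p = 9.09e-47). Slc11a2 (DMT1, which carries iron out of endosomes) had 37.8, 37.9 and 35.6 TPM and 46.4, 36.4 and 34.1 TPM in macrophages and 8.03 to 14.2 TPM in monocytes (3.26-fold). Slc30a1 (ZnT1, the zinc exporter of the plasma membrane) was low throughout, at 2.06 and 1.28 TPM in macrophages and 0.458 and 0.234 TPM in monocytes, 4.62-fold higher in macrophages. Slc39a12 (ZIP12) had 2.21, 3.34 and 6.17 TPM and 0.962, 5.35 and 2.61 TPM in macrophages and at most 0.0878 TPM in monocytes. Slc30a5, Slc30a6 and Slc30a9 rose by 1.29, 0.52 and 0.96, and Slc39a11 fell by 0.79 ± 0.29 on the log2 scale. The copper carriers Slc31a1 and Slc31a2 were not called. Slc31a2, the most abundant metal carrier, had group means of 105, 100.36, 106 and 63.7 TPM.

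Inorganic ion carriers had members on both sides. Slc9a9 (NHE9, a sodium-proton exchanger of endosomes and in macrophages the most abundant of the class) had 218, 186 and 221 TPM in eYFP+ and 117, 158 and 156 TPM in eYFP- macrophages and 16.6, 18.3 and 20.2 TPM in Ly6Chi and 17.04, 3.77 and 15.3 TPM in Ly6Clo monocytes (3.45 ± 0.32 on the log2 scale). Its relative Slc9a7 (NHE7, of the Golgi) had 5.799, 5.94 and 6.102 TPM and 8.02, 4.76 and 5.77 TPM in monocytes and at most 1.96 TPM in macrophages (-3.56 ± 0.60). Likewise, the potassium-chloride carrier Slc12a7 (KCC4) had 47.3, 106 and 145 TPM and 33.7, 106 and 66.7 TPM in macrophages and at most 8.05 TPM in monocytes, whereas Slc12a9 of the same family had 92.9, 93.7 and 88.1 TPM in Ly6Chi monocytes, 67.9, 4.81 and 53.1 TPM in Ly6Clo monocytes and 7.61 to 35.8 TPM in macrophages. For Slc12a9, Ly6Clo replicate 2 lay below all macrophage libraries and the other monocyte libraries above them (adjusted p = 0.0116). Without Ly6Clo replicate 2 the log2 fold change of Slc12a9 was -1.78 ± 0.32 (adjusted p = 1.20e-07). The phosphate carrier Slc20a1 (PiT1) was 2.99-fold higher in macrophages. Slc8b1 (the sodium-calcium exchanger of mitochondria) was not called.

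Organic ion and lipid carriers added a few members. Slc17a5 (sialin, which releases sialic acid from lysosomes) had 46.3, 48.2 and 44.5 TPM and 34.8, 36.5 and 36.6 TPM in macrophages and 16.1, 15.6 and 16.3 TPM in Ly6Chi and 13.6, 15.8 and 8.34 TPM in Ly6Clo monocytes (2.68-fold higher in macrophages). Slc22a5 (OCTN2, carnitine) was 1.96-fold higher. Slc22a17 and Slc22a23 were higher by 3.65 and 4.97 and Slc22a15 lower at -4.45 ± 0.60 on the log2 scale. Slc44a2, a choline-like carrier, was the most abundant lipid and choline carrier and was lower in macrophages: 45.6, 79.1 and 94.7 TPM and 66.3, 92.998 and 81.8 TPM there against 293, 243 and 246 TPM in Ly6Chi and 364, 60.7 and 305 TPM in Ly6Clo monocytes (-1.82 ± 0.36, adjusted p = 3.38e-06). Ly6Clo replicate 2, at 60.7 TPM, lay within the macrophage range, and without it the log2 fold change of Slc44a2 was -2.10 ± 0.18. The fatty acid carrier Slc27a1 was called higher in macrophages by DESeq2 (adjusted p = 0.0338) but not by edgeR (adjusted p = 0.09002).

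The mitochondrial carriers had nearly as many members lower as higher. Slc25a5 (ANT2, an ADP/ATP exchanger), the most abundant member in the mean over the 12 libraries, had 1135, 649.6 and 623 TPM in eYFP+ and 906, 597 and 749 TPM in eYFP- macrophages, 708, 634 and 742 TPM in Ly6Chi and 464, 1152 and 549 TPM in Ly6Clo monocytes and was not called (0.05 ± 0.32 on the log2 scale, adjusted p = 0.933). Its highest values were in eYFP+ replicate 1 and Ly6Clo replicate 2, the libraries with few GC-rich transcripts. Its paralogue Slc25a4 (ANT1) was 1.98-fold higher in macrophages, with 185, 167 and 183 TPM and 216, 162 and 201 TPM against 108, 115 and 117 TPM and 59.9, 77.2 and 67.4 TPM. The phosphate carrier Slc25a3 was slightly lower (-0.49 ± 0.16, adjusted p = 0.00864).

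The members lower in macrophages included both aspartate-glutamate carriers of the malate-aspartate shuttle and the carnitine-acylcarnitine carrier. Slc25a12 (aralar) had 10.9 and 11.9 TPM in macrophages and 31.4 and 14.7 TPM in monocytes, and Slc25a13 (citrin) had 2.42 and 3.43 TPM against 12.9 and 8.99 TPM. Slc25a20 (carnitine-acylcarnitine) had 13.6, 25.4 and 17.97 TPM and 19.7, 17.7 and 14.8 TPM in macrophages and 40.5, 57.8 and 53.3 TPM and 39.8, 77.96 and 53.2 TPM in monocytes, without overlap (-1.67 ± 0.26, adjusted p = 1.49e-09). Slc25a24 (ATP-magnesium and phosphate) was 42.3, 39.01 and 35.01 TPM in Ly6Chi and 22.4, 5.76 and 17.5 TPM in Ly6Clo monocytes against 2.33 to 8.72 TPM in macrophages, with replicate 2 of Ly6Clo within the macrophage range. Without that library the log2 fold change of Slc25a24 was -2.26 ± 0.24. Members higher in macrophages were Slc25a1 (citrate, 1.78-fold), Slc25a26 (S-adenosylmethionine, 5.41-fold), Slc25a42 (coenzyme A, 6.53-fold) and Slc25a21 (oxodicarboxylates, 1.38 and 5.47 TPM against 0.162 and 0.0947 TPM).

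Of the 20 members sorted into the nucleotide sugar class, 11 were not called. The class is named for carriers that bring nucleotide sugars and related donors into the Golgi, but also holds others such as Slc33a1. Slc35b2, which carries the sulfate donor PAPS, had 53.8, 208 and 212 TPM in eYFP+ and 199.60, 194 and 193 TPM in eYFP- macrophages and 67.2, 69.4 and 64.2 TPM and 68.9, 42.6 and 74.1 TPM in monocytes (1.33 ± 0.30), with eYFP+ replicate 1 within the monocyte range. Without that library the log2 fold change of Slc35b2 was 1.53 ± 0.19. Slc35a1 (CMP-sialic acid) had 49.2 to 71.8 TPM in macrophages and 19.8 to 24.2 TPM in monocytes, without overlap (2.41-fold). Slc35f6 was 3.36-fold higher. Slc35c1 (GDP-fucose) was lower, with 98.5, 121 and 132 TPM in Ly6Chi and 49.2, 4.91 and 56.7 TPM in Ly6Clo monocytes and 13.5 to 40.4 TPM in macrophages, and Ly6Clo replicate 2 lay below the macrophages (adjusted p = 0.0108, and 1.64e-09 for Slc35c1 without that library). The abundant Slc35c2 and Slc35a4 were not called. Slc14a1, the urea carrier of red cells, was 3.91-fold higher in macrophages, as were all 15 erythroid markers; their part in it was not tested.

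The second comparison asked whether embryonic (eYFP+) and adult-derived (eYFP-) macrophages differed. No member was called higher and 5 (2.89%) were called lower in eYFP+ macrophages. Among genes with the same count floor, 0.110% were higher and 2.62% lower, and 2.04% of all genes tested were called. The share of members is thus close to the background. edgeR called 1 member, Slc1a5, and 0.334% of all genes, and did not call the other 4. With limma, a further alternative described below, 3 of the 5 were no longer called on log2(TPM + 1) and 4 on log2(TPM + 0.1). On counts simulated for this comparison DESeq2 made false calls above its nominal share and edgeR did not. In the same simulated counts edgeR missed more of the true changes than DESeq2 did. The median log2 fold change of the members was 0.11, beside 0.04 over genes with that floor.

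The 5 members were 3 amino acid carriers, a glucose carrier and a vesicular amine carrier. Slc1a5 had 11.7, 11.6 and 9.58 TPM in eYFP+ and 42.3, 46.3 and 70.98 TPM in eYFP- macrophages, without overlap, a log2 fold change of -2.23 ± 0.42 (adjusted p = 2.79e-05, edgeR 0.0425). Slc43a1 (LAT3, large neutral amino acids) had 9.96, 6.84 and 10.6 TPM in eYFP+ and 43.4, 34.2 and 46.4 TPM in eYFP- macrophages (-2.15 ± 0.58, adjusted p = 0.0136, edgeR 0.1696), and both groups lay above the monocytes, whose highest library had 1.48 TPM. Slc38a1 had 1.01, 2.701 and 2.25 TPM in eYFP+ and 3.301, 6.98 and 4.67 TPM in eYFP- macrophages (-1.29 ± 0.37, adjusted p = 0.0271, edgeR 0.151).

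Slc2a3 (GLUT3, a high-affinity glucose carrier) had 1.27, 1.31 and 0.391 TPM in eYFP+ and 2.798, 7.08 and 5.305 TPM in eYFP- macrophages (-2.26 ± 0.51, adjusted p = 0.00144, edgeR 0.105). Slc18a2 (VMAT2, which loads histamine and other amines into vesicles) had 0.251, 1.26 and 1.87 TPM in eYFP+ and 2.65, 11.1 and 6.46 TPM in eYFP- macrophages (-2.55 ± 0.61, adjusted p = 0.00323, edgeR 0.141). In none of the 5 did the eYFP+ and eYFP- libraries overlap. This was not particular to them, since 33 of the 173 members had no overlap between these groups. Of the 5, 3 (Slc1a5, Slc38a1 and Slc2a3) were among the members lower in macrophages than in monocytes. The comparisons share the macrophage libraries, and nothing is read from this count.

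**Figure D4:**
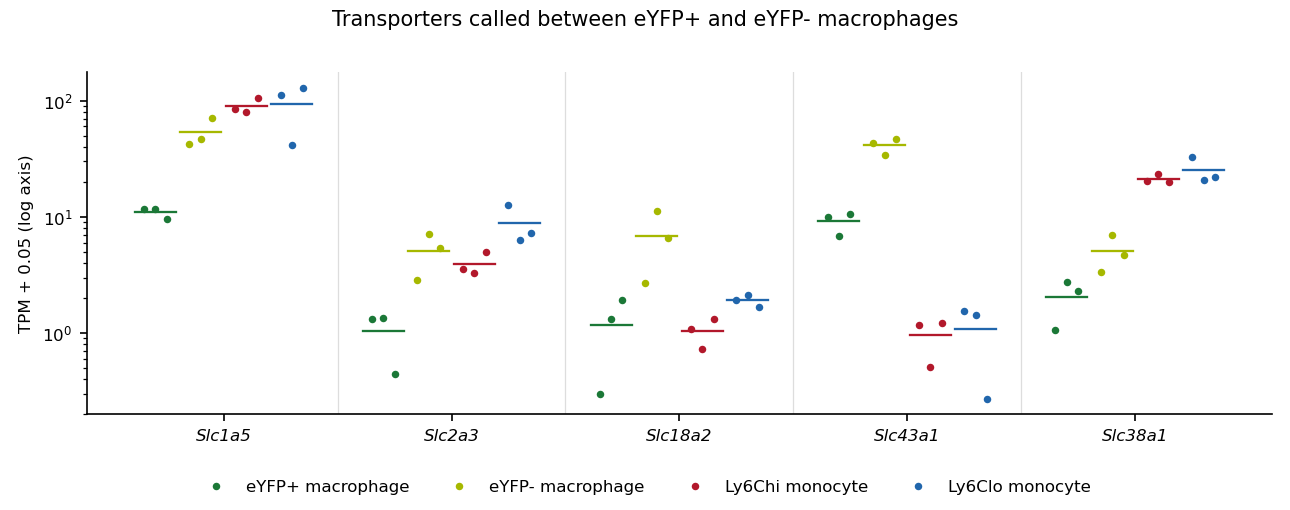
Points are TPM plus 0.05 (vertical log axis) in the 12 libraries for the 5 members called between the macrophage groups, in the order of adjusted p, with group means as lines. For each gene all 3 eYFP+ libraries lie below all 3 eYFP- libraries. Over all 173 members, 33 had no overlap between these groups.

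Markers of other cells moved with the same comparison. The proliferation list summed to 211 to 356 TPM in eYFP+ and 579 to 990.4 TPM in eYFP- macrophages, with 6 of 14 genes called lower in eYFP+ and none at 0 in a whole group. The erythroid list (2 of 15 called lower in eYFP+) and its sums are given above. The list for eosinophils, basophils and mast cells summed to 612 to 757 TPM in eYFP+ and 882 to 2388 TPM in eYFP- macrophages (1 of 9 called lower, none at 0 in a whole group). In eYFP+ macrophages most of that sum was Ear2, with 590.1, 737 and 728 TPM in eYFP+ and 439.7, 599 and 611 TPM in eYFP- macrophages. Of the basophil and mast cell genes, Mcpt8 had 0, 0.1801 and 0.146 TPM in eYFP+ and 87.4, 155 and 203 TPM in eYFP- macrophages. Prss34 had 0, 2.55 and 0 TPM against 188, 254 and 456 TPM. Cpa3 had 8.21, 3.43 and 1.29 TPM against 52.2, 65.8 and 118 TPM. With 1 of 9 genes of the list called, not all of these differences passed the threshold. Slc18a2, which basophils and mast cells are known to express, was lower in the same libraries. The list for neutrophils and their precursors summed to 124 to 212 TPM in eYFP+ macrophages and to 264, 2708 and 913 TPM in eYFP- replicates 1, 2 and 3 (5 of 12 called lower, none at 0). Their part in the 5 results was not tested. Without Ly6Clo replicate 2, which is in neither macrophage group but in the same fit, 10 members were called lower, the 5 and Slc38a5, Slc16a1, Slc16a3, Slc25a21 and Slc14a1. Without eYFP- replicate 2, 3 members were higher (Slc25a36, Slc39a9 and Slc39a10) and 3 lower (Slc1a5, Slc43a1 and Slc2a3), and without eYFP- replicate 3, 3 were lower (Slc1a5, Slc18a2 and Slc2a3). Without eYFP+ replicate 1, Slc38a1 was lost and Slc22a4 added.

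Members past no threshold here are not shown to be alike. Slc38a5 had 15.7, 5.16 and 7.35 TPM in eYFP+ and 69.8, 19.8 and 30.7 TPM in eYFP- macrophages (-2.07 ± 0.83, adjusted p = 0.279), and the groups did not overlap although the spread was wide. Slc14a1 had 12.01, 8.93 and 10.7 and 23.4, 23.2 and 27.8 TPM (-1.19 ± 0.49, adjusted p = 0.301). Slc15a2 stood higher in eYFP+ macrophages in every library, at 111, 79.5 and 83.5 against 54.4, 55.6 and 50.01 TPM, with a log2 fold change of 0.83 ± 0.34 (adjusted p = 0.297).

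The third comparison set Ly6Chi against Ly6Clo monocytes. There 10 members were called higher and 8 lower in Ly6Chi monocytes, together 10.4% of the 173. Among genes with the same count floor, 4.42% were higher and 6.57% lower, against 5.78% and 4.62% of the members, and 8.62% of all genes tested were called. The share of members is near the background. edgeR called 6 members (2 higher, 4 lower) and 4.32% of all genes. Leaving out either of Ly6Chi replicates 1 and 3 left 2 members higher, and leaving out either of Ly6Chi replicates 2 and 3 left 5 lower. Without Ly6Clo replicate 1 the members called higher numbered 17, without Ly6Clo replicate 2 the members called lower numbered 13, and without both Ly6Clo replicate 2 and eYFP+ replicate 1 the counts were 18 higher and 21 lower.

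Of the 8 members lower in Ly6Chi monocytes, 5 (Slc29a1, Slc12a2, Slc1a3, Slc46a3 and Slc5a6) were also higher in macrophages than in monocytes. The comparisons share the Ly6Chi libraries, low values of which raise both differences, and 43.4% of all members were called higher in macrophages, so nothing is read from this count. Slc29a1 had 31.99, 35.6 and 39.1 TPM in Ly6Chi and 147, 181 and 166 TPM in Ly6Clo monocytes, 4.64-fold apart (log2 fold change -2.21 ± 0.21, adjusted p = 1.85e-22, edgeR 9.33e-05). Slc12a2 (NKCC1, the sodium-potassium-chloride carrier) had 0.392, 0.657 and 0.233 TPM in Ly6Chi and 6.18, 15.9 and 3.95 TPM in Ly6Clo monocytes (-4.37 ± 0.59, adjusted p = 1.63e-11, edgeR 0.00222). Ly6Clo monocytes overlapped the macrophages, which had 4.51 to 12.8 TPM, and Ly6Chi monocytes lay below both. Slc1a3 had 0.295, 0.0846 and 0.0703 TPM in Ly6Chi and 0.6701, 2.18 and 1.25 TPM in Ly6Clo monocytes (-3.19 ± 0.57, adjusted p = 1.54e-06, edgeR 0.00753), both far below macrophages.

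Slc5a11 (a sodium-coupled myo-inositol carrier) had 1.301, 1.32 and 0.781 TPM in Ly6Chi and 7.06, 9.09 and 6.74 TPM in Ly6Clo monocytes (-2.75 ± 0.50, adjusted p = 3.59e-06, edgeR 0.0109), and Ly6Clo monocytes were the group with the highest level. Slc6a12 had 2.01, 1.82 and 2.83 and 8.804, 8.47 and 8.93 TPM (-1.97 ± 0.55). Slc46a3 (-0.92), Slc5a6 (-1.54) and the zinc carrier Slc39a13 (-1.32) made up the 8. The summed macrophage markers were 375 to 452 TPM in Ly6Chi and 1306 to 3067 TPM in Ly6Clo monocytes, with 11 of 12 called lower in Ly6Chi and none at 0 in a whole group, against 47137 to 64482.5 TPM in macrophages. The list for eosinophils, basophils and mast cells summed to 136 to 273 TPM in Ly6Chi and 896 to 2457 TPM in Ly6Clo monocytes (4 of 9 called lower and 1 higher in Ly6Chi), and 4 of 12 neutrophil markers were called higher and 2 lower in Ly6Chi. The part of these cells in the members' differences was not tested. Slc29a1 in Ly6Clo monocytes was 147 to 181 TPM beside 516 to 599 TPM in macrophages.

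The 10 members higher in Ly6Chi monocytes had log2 fold changes from 0.75 to 1.57, beside -0.92 to -4.37 for the 8 that were lower. Slc16a6 had 7.62, 6.79 and 7.72 TPM in Ly6Chi and 3.67, 3.24 and 3.34 TPM in Ly6Clo monocytes (1.12 ± 0.24, adjusted p = 1.28e-04, edgeR 0.00878), and Slc2a9 had 6.03, 5.704 and 5.51 TPM and 2.44, 1.48 and 1.96 TPM (1.56 ± 0.37, adjusted p = 8.47e-04, edgeR 0.0356). Neither gene overlapped between the groups. Slc7a7 had 27.6, 22.03 and 33.2 TPM and 13.9, 8.86 and 17.2 TPM (1.06 ± 0.34, adjusted p = 0.0269), and Slc29a3 had 57.2, 47.7 and 54.8 TPM and 30.3, 7.45 and 17.2 TPM (1.57 ± 0.49, adjusted p = 0.02196). The other 6 were Slc36a1 (a lysosomal proton-coupled amino acid carrier), Slc25a12, Slc25a24, Slc43a3, Slc39a10 and Slc31a2, with log2 fold changes from 0.75 to 1.44, none called by edgeR. For 9 of the 10, all but Slc36a1, the lowest Ly6Clo value was that of replicate 2, and without this library Slc7a7, Slc39a10 and Slc31a2 were no longer called. Without eYFP- replicate 2, which is in neither monocyte group but in the same fit, Slc25a24, Slc31a2 and Slc39a13 were no longer called, with 11 members higher and 8 lower. The glucose carriers Slc2a6 and Slc2a1 and the lactate carrier Slc16a3 were not called here. Slc16a3 was 67.3, 64.002 and 63.3 TPM in Ly6Chi and 200.02, 9.65 and 174 TPM in Ly6Clo monocytes and was called lower in Ly6Chi without replicate 2.

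**Figure D5:**
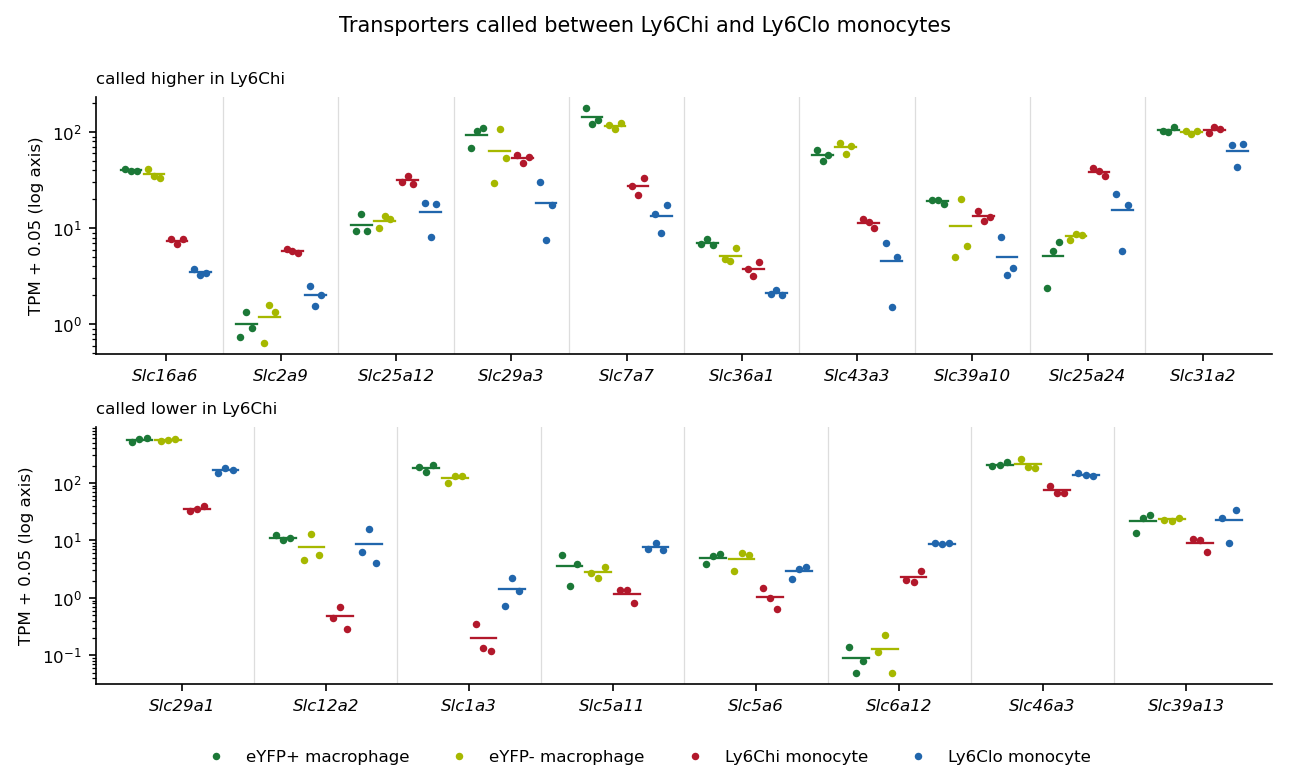
Points are TPM plus 0.05 (vertical log axes) in the 12 libraries for the 10 members called higher (upper panel) and the 8 called lower (lower panel) in Ly6Chi monocytes, in the order of adjusted p, with group means as lines. Slc29a1, Slc12a2, Slc1a3, Slc5a11, Slc5a6, Slc6a12 and Slc46a3 separate all Ly6Chi from all Ly6Clo libraries, whereas for Slc39a13 the groups overlap through Ly6Clo replicate 2. Over all 173 members, 68 had no overlap between these groups.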

How the data were processed

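RNA of sorted cells was reverse transcribed, amplified as full-length cDNA and tagmented. The authors trimmed and error-corrected the read pairs, removed ribosomal RNA, aligned to GRCm39 (Ensembl annotation) with segemehl and counted unambiguous pairs per gene with featureCounts. They deposited whole read counts, TPM (counts per gene length and library size) and variance-stabilised values close to log2. Here the deposited counts went into DESeq2 1.42.0 (R 4.3.3), over all 12 libraries, with the 4 groups in 1 fit, Wald contrasts and Benjamini-Hochberg adjusted p under 0.05 over all genes tested. SE is that of the fitted log2 fold change. TPM gives levels, and the deposited log2 values served only to check whether replicate numbers pair libraries. Alternatives were edgeR 4.0.16 (quasi-likelihood), limma 3.58.1 on log2(TPM + 1) and log2(TPM + 0.1), other scalings and filters, a GC correction and leaving out libraries. The scripts were tested on simulated data, where DESeq2 made more false calls than edgeR between the macrophage groups but also found more of the true changes. Depth was 26390927 to 48618187 counts, and without molecular identifiers precision rests on the spread between libraries.

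Gene symbols came from an older GENCODE table (GRCm38) that matched 91.4% of the identifiers, so no gene coordinates are given, and promoter positions are those of RefSeq on GRCm38.p6. Substrate classes follow the Slc family numbers with overrides. Slc4a1ap was moved to the genes that are no carriers after its values were seen. The members and lists were chosen with earlier results of these data known. Genes were named by a rule: per class the 3 with the highest mean TPM, the first called members by adjusted p without overlap (3 per direction for macrophages against monocytes, 2 for the monocyte groups), all called between the macrophage groups, and a short list of well-known carriers. Not all of these are printed, and further members were named after their values were seen.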

Additional observations from a re-analysis of the deposited data

How the results depend on the processing

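The counts of members called between macrophages and monocytes (75 higher, 34 lower) stayed within 1.5 times of these values under every alternative run, and ranged from 65 to 80 higher and 29 to 38 lower when each library was left out. Fitting only the 6 libraries of a contrast could not be applied there, since the contrast uses all 12. The other 2 comparisons moved. The numbers that follow are all members called under a setting, with members added as well as lost. Against 5 members lower in eYFP+ macrophages, edgeR and limma on log2(TPM + 0.1) each called 1, a fit of the 6 macrophage libraries alone 9, the fit without eYFP+ replicate 1 and Ly6Clo replicate 2 together 10, and leaving out single libraries 3 to 10, with 0 to 3 members higher. Against 10 higher in Ly6Chi monocytes, edgeR called 2, no independent filtering 4, the 6 monocyte libraries alone 4, limma 4 on log2(TPM + 1) and 3 on log2(TPM + 0.1), both doubtful libraries left out 18, and single libraries left out 2 to 17. Against 8 lower there, edgeR called 4, the 6 libraries alone 5, both doubtful libraries left out 21, and single libraries left out 5 to 13. Over the named members no log2 fold change turned its sign, but these were picked as called, so a stable sign says little. Counting each named member under each setting, the call was kept in 101 cases and lost, or under 2-fold, in 29 between the macrophage groups. The counts were 316 and 126 between the monocyte groups and 1567 and 58 between macrophages and monocytes. The cause of the moves was not tested.

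The replicate numbers were not taken to pair the libraries: same-numbered macrophage libraries deviated together with correlations of 0.283, 0.0994 and 0.0881 over 2000 genes, and monocyte libraries with 0.0492, -0.0233 and 0.0262. With the number as a block, DESeq2 called 0 higher and 6 lower in eYFP+ macrophages, 6 higher and 7 lower in Ly6Chi monocytes and 73 higher and 33 lower in macrophages. edgeR with the block called 0 lower in eYFP+ macrophages, and 1 higher and 4 lower in Ly6Chi monocytes. Over all genes, the block changed the macrophage comparison more: DESeq2 called 1155 genes with it and 439 without it. For edgeR these numbers were 24 and 64. With 3 libraries per group and few GC-rich transcripts in 2 libraries, members at low levels or with GC-rich transcripts call for caution. Their certainty was not compared with that of other members. With the GC correction, 2 calls were lost and 5 added between macrophages and monocytes. Between the monocyte groups 2 were lost and 6 added, and between the macrophage groups 0 were lost or added.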

Other observations

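Some carriers of the solute carrier superfamily bear other names. Of 40 such genes, 15 were called higher and 7 lower in macrophages than in monocytes (DESeq2), beside 20.3% and 15.03% of all genes tested. These genes were not selected by the count floor of the members. Their median log2 fold change was 0.21 beside 0.54 over the members. Slco2b1, an organic anion carrier, had 709.7, 583 and 731 TPM in eYFP+ and 379, 516 and 537 TPM in eYFP- macrophages, 0.257, 0.335 and 0.307 TPM in Ly6Chi and 8.34, 1.96 and 7.03 TPM in Ly6Clo monocytes (log2 fold change 8.67 ± 0.32, adjusted p = 2.21e-154). It was also lower in Ly6Chi than in Ly6Clo monocytes (-4.24 ± 0.47). Sfxn3, a mitochondrial serine carrier, was lower in macrophages (-1.84 ± 0.12). Slco4a1 was listed at 0 in all eYFP+ libraries and had 1.17, 2.23 and 1.46 TPM in eYFP- macrophages.

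Proteins that bring lactate carriers to the cell surface moved apart. Bsg (basigin) was 1.86-fold higher in macrophages (adjusted p = 2.68e-05). Emb (embigin) had 541, 629 and 612 TPM in Ly6Chi and 239, 167 and 292 TPM in Ly6Clo monocytes against 9.73, 11.9 and 10.4 TPM in eYFP+ and 14.9, 28.1 and 28.3 TPM in eYFP- macrophages (-4.65 ± 0.21). Of 14 genes of amino acid sensing and stress, 4 were called higher in macrophages (Ddit3, Flcn, Rragc and Asns). Called lower were 2, Castor1 and Eif4ebp1. Among all genes tested, 20.3% were called higher and 15.03% lower. edgeR did not call Asns (adjusted p = 0.0612).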
